A study of Mus musculus with 32 samples.

Results

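The genes described here are 35 components and feedback regulators of the NF-kB pathway, taken as a list of names by role. They comprise 5 transcription factor subunits, 12 genes grouped as inhibitors, 7 kinases and 11 adaptors and ubiquitin ligases. The inhibitor group holds 6 genes of the IkB family, nuclear members such as Nfkbiz included. Its other 6 are ubiquitin-editing enzymes, their partners and deubiquitinases. They stand among 35968 genes to which transcript counts were summed, and all 35 were among the 17159 genes that passed the filter on low counts and were tested.

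NF-kB dimers are held in the cytoplasm by IkB proteins until the IkB kinase complex marks the inhibitor for degradation, after which the dimers enter the nucleus and transcribe their targets. Several of those targets, the genes of the IkB proteins and of the ubiquitin-editing enzyme Tnfaip3 among them, switch the pathway off again. An alternative route runs through the NF-kB-inducing kinase, whose protein is kept low by a complex of TRAF and cIAP proteins. In CD4 T cells the antigen receptor, CD28 and members of the TNF receptor family feed into these routes, and the c-Rel subunit is required for the development of regulatory T cells in mice.

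The RNA came from CD4 T cells of the liver and the spleen of male Foxp3GFP mice on C57BL/6, a reporter genotype that every group carried. The TCRb+CD4+Foxp3+ gate gave regulatory T cells (Treg), and the TCRb+CD4+Foxp3- gate gave conventional T cells (Tconv). The 8 groups were liver Treg CCl4, liver Treg control, liver Tconv CCl4, liver Tconv control, spleen Treg CCl4, spleen Treg control, spleen Tconv CCl4 and spleen Tconv control, with 5 libraries in each CCl4 group and 3 in each control group, 32 in all. Carbon tetrachloride (CCl4) is a liver toxin whose dose and duration, like the age of the mice, are not in the sources used here. The labels do not say whether the libraries of a group came from separate mice, and p-values can only reflect library-to-library spread, which may be technical. Levels are library-size-scaled counts (CPM) after TMM normalisation, given as mean ± SD over libraries. A gene was called where its adjusted p was under 0.05 over all tested genes.

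Library totals of estimated counts ranged over 24513124 to 75292019. Foxp3 lay between 909 and 1176 CPM in the Treg libraries and between 0.681 and 3.43 CPM in the Tconv libraries, and Cd4 was at 495 CPM or above in every library. The spleen control libraries numbered 2 and 3 stood apart in both cell types: Fos was at 25.2 and 22.6 CPM in Treg and 26.4 and 19.4 CPM in Tconv, against 843 and 804 CPM in the spleen control libraries numbered 1. Over a list of 22 immediate early and heat shock genes the summed level ran from 17175 to 22565 CPM in liver Treg, from 29356 to 42126 CPM in liver Tconv and from 3046 to 14197 CPM in spleen libraries. Of 12 hepatocyte markers, all were higher in the liver libraries of both cell types than in the spleen libraries, with sums of 136 to 598 CPM in liver and 2.95 to 29.7 CPM in spleen. The part of RNA from other cells in the differences below was not tested, and in bulk samples fewer cells of a type and less RNA per cell cannot be told apart.

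Compared per transcript length, as deposited TPM, Nfkbia and Tnfaip3 were the most abundant of the 35 in all 4 populations. Nfkbia, the IkB protein that is resynthesised after each round of activation, averaged 2322 TPM in liver Treg, 1254 TPM in liver Tconv, 1895 TPM in spleen Treg and 918 TPM in spleen Tconv. Tnfaip3, the ubiquitin-editing enzyme that ends TNF receptor and antigen receptor signals, averaged 1149 TPM in liver Treg, 1210.1 TPM in liver Tconv, 363 TPM in spleen Treg and 241 TPM in spleen Tconv, so that liver libraries of both cell types held more than either spleen population. Traf1, an adaptor of TNF family receptors, was the third most abundant in liver Treg and averaged 642 TPM in liver Treg, 334 TPM in liver Tconv, 325 TPM in spleen Treg and 186 TPM in spleen Tconv.

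The 5 subunits differed in how far their levels spread over the populations. Rela, the main activating subunit of the canonical route, was nearly flat, at 171 TPM in liver Treg, 171 TPM in liver Tconv, 175 TPM in spleen Treg and 172 TPM in spleen Tconv. Rel, the lymphoid activating subunit, spanned the widest range of the 5 as a ratio, at 77.7 TPM in liver Treg, 23.8 TPM in liver Tconv, 15.5 TPM in spleen Treg and 6.72 TPM in spleen Tconv. Nfkb1, the precursor of the DNA-binding partner of Rela and Rel, averaged 161 TPM in liver Treg, 58.8 TPM in liver Tconv, 57.95 TPM in spleen Treg and 43.5 TPM in spleen Tconv. Nfkb2 and Relb, which form the dimer of the alternative route, were lowest in spleen Tconv at 45.6 and 55.97 TPM. The lowest member in all 4 populations was Tnip3, a partner of Tnfaip3, at 12.1 TPM in liver Treg, 1.17 TPM in liver Tconv, 5.53 TPM in spleen Treg and 0.646 TPM in spleen Tconv.

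**Figure D1:**
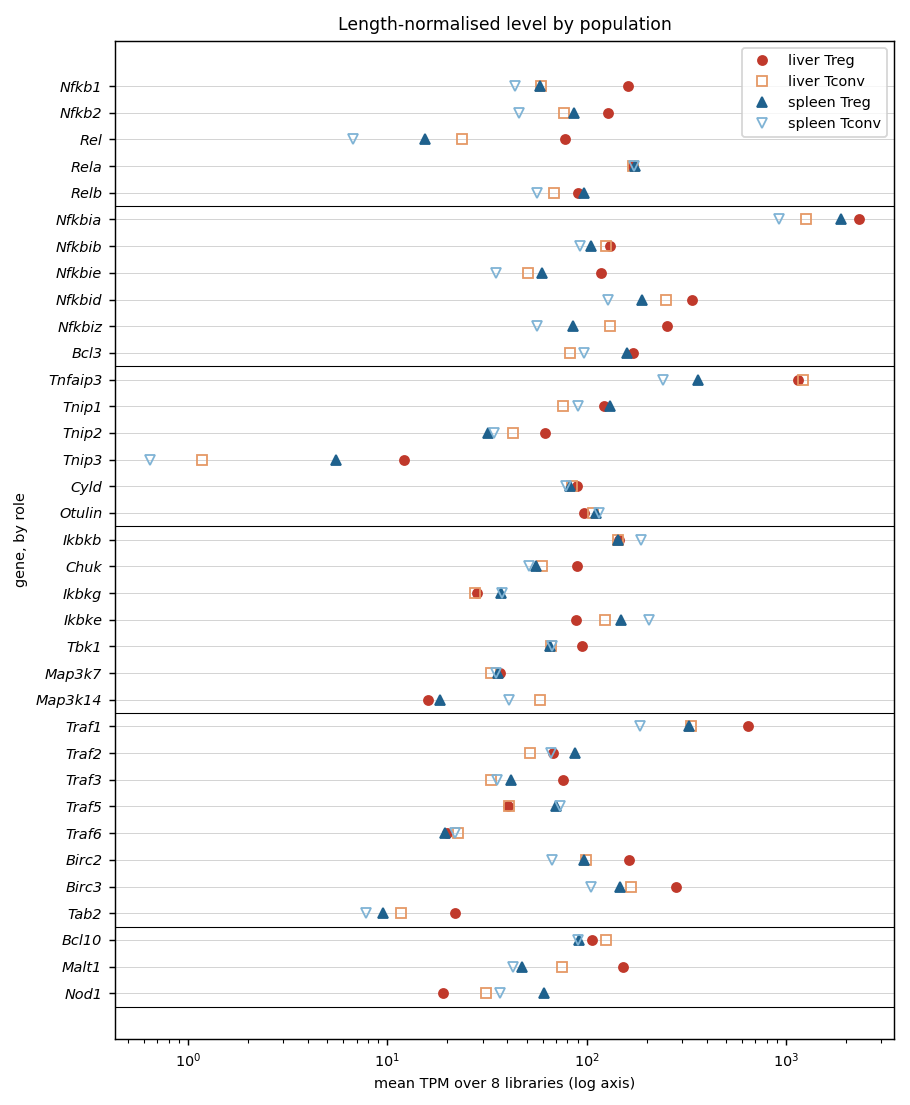
Mean deposited TPM of each of the 35 genes over the 8 libraries of a population, on a log axis, with genes grouped by role and 1 symbol for each population. Rela symbols coincide near 171 TPM, while Rel runs from 77.7 TPM in liver Treg to 6.72 TPM in spleen Tconv.

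Promoters were searched because many NF-kB regulators are themselves NF-kB targets. RefSeq promoters (GRCm38.p6) of 30 of the 35 genes were at hand, and the 250 bases before each start were searched on both strands for the kappa-B consensus by name. It was found for 12 of the 30 genes (40.0%): Bcl10, Map3k7, Tnip3, Nfkbid, Cyld, Tnfaip3, Rel, Tnip1, Nfkbia, Traf3, Nfkbie and Nfkb2. Over all 27025 genes of the table it was found for 2225 (8.23%). The 6 shown are those of the subunits and inhibitors whose levels the results below turn on most, written 5′ to 3′ on the gene's strand and ending at the base before the start, with each match in capitals. A match is a stretch of letters and was not tested for binding.

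The windows are chr11:23770970-23771219 (minus strand) for Rel, chr19:46305680-46305929 (plus strand) for Nfkb2, chr12:55492648-55492897 (minus strand) for Nfkbia, chr7:30422156-30422405 (plus strand) for Nfkbid, chr10:19015411-19015660 (minus strand) for Tnfaip3 and chr6:65590148-65590397 (plus strand) for Tnip3. Of 3 Nfkb2 windows with a match, the one shown is that whose next bases were found in the opening part of a GENCODE transcript. That does not show that a transcript begins at this start.
Rel: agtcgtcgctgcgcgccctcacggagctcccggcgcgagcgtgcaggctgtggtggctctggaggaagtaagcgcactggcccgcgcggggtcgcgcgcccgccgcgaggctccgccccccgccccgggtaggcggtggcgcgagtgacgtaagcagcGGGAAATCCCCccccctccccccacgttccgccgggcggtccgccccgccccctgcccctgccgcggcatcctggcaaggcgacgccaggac
Nfkb2: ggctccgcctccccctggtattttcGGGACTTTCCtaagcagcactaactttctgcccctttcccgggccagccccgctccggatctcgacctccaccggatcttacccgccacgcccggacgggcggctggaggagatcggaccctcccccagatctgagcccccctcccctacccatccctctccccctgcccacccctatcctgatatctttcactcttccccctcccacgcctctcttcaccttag
Nfkbia: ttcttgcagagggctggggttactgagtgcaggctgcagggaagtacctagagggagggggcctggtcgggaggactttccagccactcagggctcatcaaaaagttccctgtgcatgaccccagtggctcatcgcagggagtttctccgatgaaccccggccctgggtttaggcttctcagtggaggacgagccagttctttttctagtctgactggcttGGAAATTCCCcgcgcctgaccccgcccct
Nfkbid: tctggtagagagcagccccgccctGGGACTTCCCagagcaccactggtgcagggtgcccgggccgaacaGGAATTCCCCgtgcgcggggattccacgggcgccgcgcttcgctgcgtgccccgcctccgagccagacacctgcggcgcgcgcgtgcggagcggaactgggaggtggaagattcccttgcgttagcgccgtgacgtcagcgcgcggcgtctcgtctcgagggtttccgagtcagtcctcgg
Tnfaip3: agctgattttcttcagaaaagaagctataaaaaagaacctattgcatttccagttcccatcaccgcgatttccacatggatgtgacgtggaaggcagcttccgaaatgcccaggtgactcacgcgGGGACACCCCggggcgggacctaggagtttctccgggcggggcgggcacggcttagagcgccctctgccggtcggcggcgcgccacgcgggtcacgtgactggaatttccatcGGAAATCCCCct
Tnip3: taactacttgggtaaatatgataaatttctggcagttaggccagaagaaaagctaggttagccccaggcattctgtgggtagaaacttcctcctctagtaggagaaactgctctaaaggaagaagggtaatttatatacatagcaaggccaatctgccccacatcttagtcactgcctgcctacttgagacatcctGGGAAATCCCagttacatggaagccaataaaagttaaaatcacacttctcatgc
Matches began at -92 from the start in Rel, -225 in Nfkb2, -29 in Nfkbia and -54 in Tnip3. Nfkbid held 2 separate stretches, at -226 and -181, and Tnfaip3 held 2, at -125 and -12.

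In liver Treg, CCl4 mice had higher Rel, Nfkbia, Nfkbib, Nfkbiz, Traf3 and Malt1 and lower Nod1, Map3k14, Ikbke and Traf5. These 6 rises and 4 falls make 10 of the 35 genes (28.6%), where 14.9% of all tested genes were called, 7.55% as higher and 7.34% as lower. The median log2 fold change of the 35 was -0.0027, against -0.00081 over all tested genes, so the median of the 35 lay at that of all genes. The genes called included 3 of the inhibitor group (Nfkbia, Nfkbib and Nfkbiz), all higher, and 2 kinases, both lower.

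**Figure D2:**
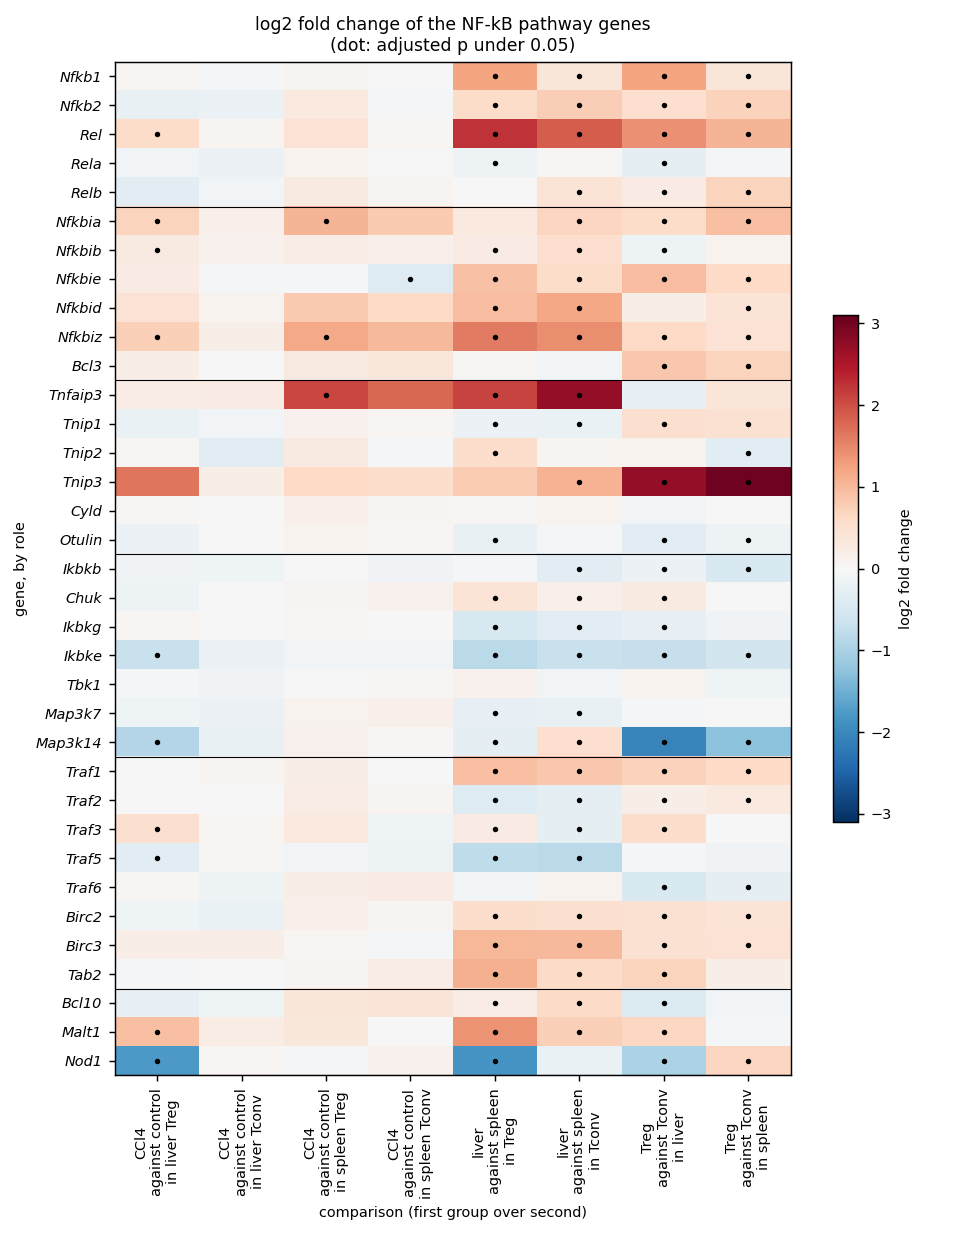
log2 fold change of each of the 35 genes (rows, by role) in the 8 comparisons (columns, first-named group over the second), with a dot where the adjusted p was under 0.05. Dots are sparse in the 4 CCl4 columns (10, 0, 3 and 1) and dense in the tissue columns (27 and 27) and the cell type columns (28 and 22).

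Among the subunits, Rel alone passed the test. Its levels were 338, 421, 529, 406 and 457 CPM in CCl4 libraries, against 269, 272 and 325 CPM in control libraries (log2 fold change 0.58, SE 0.15, edgeR adjusted p = 0.0105). Every CCl4 library lay above every control library, but the call was lost without control library 1 or control library 2, with an edgeR adjusted p of at most 0.0611. Nfkb2 averaged 243 ± 34.7 CPM in CCl4 and 287 ± 10.5 CPM in control libraries, and Relb 112 ± 14.98 and 141 ± 20.3 CPM, neither called (edgeR adjusted p = 0.142 and 0.0629). Nfkb1 averaged 229 ± 13.9 CPM in CCl4 and 221 ± 26.7 CPM in control libraries. Rela averaged 238 ± 18.7 CPM in CCl4 and 254 ± 15.9 CPM in control libraries.

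Of the 6 IkB family genes, 3 rose and none fell. Nfkbia stood at 1513, 1773, 1809.6, 1863 and 1845 CPM in CCl4 libraries, against 1173, 1204 and 888 CPM in control libraries (log2 fold change 0.69, SE 0.22, edgeR adjusted p = 0.0322). Nfkbib, an IkB protein that is resynthesised slowly, stood at 85.4, 87.3, 98.5, 92.9 and 107 CPM in CCl4 libraries, against 79.6, 77.1 and 75.3 CPM in control libraries (log2 fold change 0.28, SE 0.07, edgeR adjusted p = 0.00491). The groups did not overlap for either gene. Nfkbiz, a nuclear IkB protein that acts with NF-kB on secondary targets, averaged 672 ± 85.8 CPM in CCl4 and 402 ± 10.9 CPM in control libraries (log2 fold change 0.74, SE 0.26, edgeR adjusted p = 0.0494). Of the others, Nfkbie, another cytoplasmic inhibitor, averaged 191 ± 17.8 and 160.4 ± 12.4 CPM in CCl4 and control libraries (edgeR adjusted p = 0.0502), and Nfkbid, a nuclear IkB protein, 404 ± 29.5 and 296 ± 10.2 CPM (edgeR adjusted p = 0.181). The groups did not overlap for Nfkbid. Every p-value here rests on 1 estimate of a gene's spread over all 8 groups, and Nfkbid ran from 91.2 to 207 CPM in spleen Treg controls. These p-values thus do not measure the spread in liver alone. The call of Nfkbia was lost without any of control libraries 1, 2 and 3 or CCl4 libraries 4 and 5 (edgeR adjusted p up to 0.160), and that of Nfkbiz without any library but CCl4 library 1 (up to 0.135). Exons of Nfkbib share 14.5% of their bases with Ccer2, so its value is uncertain where the strand of the reads was not used.

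None of the 6 ubiquitin-editing and deubiquitinase genes was called, by edgeR. An unadjusted p under 0.05 was found for 2 of them, a number from which nothing is read. Tnfaip3 averaged 3326 ± 269.9 CPM in CCl4 and 2855 ± 183 CPM in control libraries. Tnip3 had 13.8, 12.5, 20.2, 22.1 and 17.5 CPM in CCl4 libraries, against 3.44, 8.66 and 4.31 CPM in control libraries (log2 fold change 1.65, SE 0.62, edgeR adjusted p = 0.0688). The 5 CCl4 values exceeded the 3 control values, without reaching the threshold.

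Of the 7 kinases, 2 fell and none rose. Map3k14, the NF-kB-inducing kinase of the alternative route, had 24.97, 30.1, 32.4, 20.8 and 31.4 CPM in CCl4 libraries, against 53.6, 51.4 and 51.99 CPM in control libraries (log2 fold change -0.91, SE 0.12, edgeR adjusted p = 3.56e-06). Ikbke, an IkB kinase relative better known for interferon induction, had 111, 111, 127, 111 and 97.5 CPM in CCl4 libraries, against 177, 178 and 181 CPM in control libraries (log2 fold change -0.68, SE 0.10, edgeR adjusted p = 1.62e-05). Both genes had control values within a narrow band and no overlap with CCl4, and both calls held with each library left out. The members of the IkB kinase complex itself were not called: Ikbkb averaged 254 ± 12.5 and 274 ± 9.22 CPM in CCl4 and control libraries, Chuk 117 ± 5.18 and 131 ± 5.59 CPM, and the scaffold Ikbkg 58.5 ± 6.81 and 55.9 ± 11.8 CPM.

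The largest called changes of the 35 genes were those of Nod1 and Malt1, which join receptors to the kinases. Nod1, an intracellular sensor of bacterial peptidoglycan, had 22.6, 22.2, 20.9, 28.8 and 24.2 CPM in CCl4 libraries, against 69.1, 91.6 and 85.8 CPM in control libraries, 3.46-fold lower (log2 fold change -1.79, SE 0.13, edgeR adjusted p = 1.34e-10). Malt1, the paracaspase that carries the antigen receptor signal together with Bcl10, had 365, 399, 475, 427 and 483 CPM in CCl4 libraries, against 218, 225 and 228 CPM in control libraries, 1.92-fold higher (log2 fold change 0.94, SE 0.11, edgeR adjusted p = 6.95e-07). The 2 groups were far apart for each gene, and both calls held with each library left out. Bcl10 averaged 113 ± 4.23 CPM in CCl4 and 134 ± 17.4 CPM in control libraries and was not called (edgeR adjusted p = 0.172).

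Among the TRAF and cIAP genes, Traf3, which holds the NF-kB-inducing kinase for degradation, rose and Traf5, an adaptor of TNF family receptors, fell. Traf3 had 93.5, 119, 114, 114 and 127 CPM in CCl4 libraries, against 75.5, 80.9 and 85.6 CPM in control libraries (log2 fold change 0.49, SE 0.12, edgeR adjusted p = 0.00401). The most abundant Traf3 transcript in deposited TPM has only 645 bases and made up 58.4% of the gene in liver Treg on average. The Traf3 level is thus not that of long transcripts alone. Traf5 averaged 28.97 ± 3.11 CPM in CCl4 and 36.97 ± 2.00 CPM in control libraries (log2 fold change -0.35, SE 0.079, edgeR adjusted p = 0.00217). Neither pair of groups overlapped. Traf1 averaged 681 ± 82.04 CPM in CCl4 and 682 ± 66.2 CPM in control libraries, and Birc3, a cIAP ubiquitin ligase, 359 ± 34.6 and 310.3 ± 19.9 CPM, neither called. The calls of Traf5 and Nfkbib were lost when the 8 libraries were fitted alone or with length offsets (edgeR adjusted p up to 0.0706 and 0.0713). Over 10 endothelial and stellate markers the summed level was 105 to 181 CPM in CCl4 and 204 to 219 CPM in control liver Treg, of which Pecam1, which T cells also express, made up 106 CPM in CCl4 and 199 CPM in control libraries on average. Of the 8 markers tested, 1 was called higher and 2 lower in CCl4 libraries. The sum over 5 Treg markers was 5984 to 6177 CPM in CCl4 and 4856 to 5337 CPM in control libraries, and over the immediate early and heat shock list 19837 to 22565 CPM in CCl4 and 17175 to 20639 CPM in control libraries. Single genes of that list differed more than the sum. Dusp1 was at 2807 to 3222 CPM in CCl4 and 1354 to 1525 CPM in control libraries, and Fos at 418 to 582 and 589 to 703 CPM. Of the 22 genes 2 were called higher and 2 lower, where 14.9% of all tested genes were called. The part of these in the differences was not tested.

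**Figure D3:**
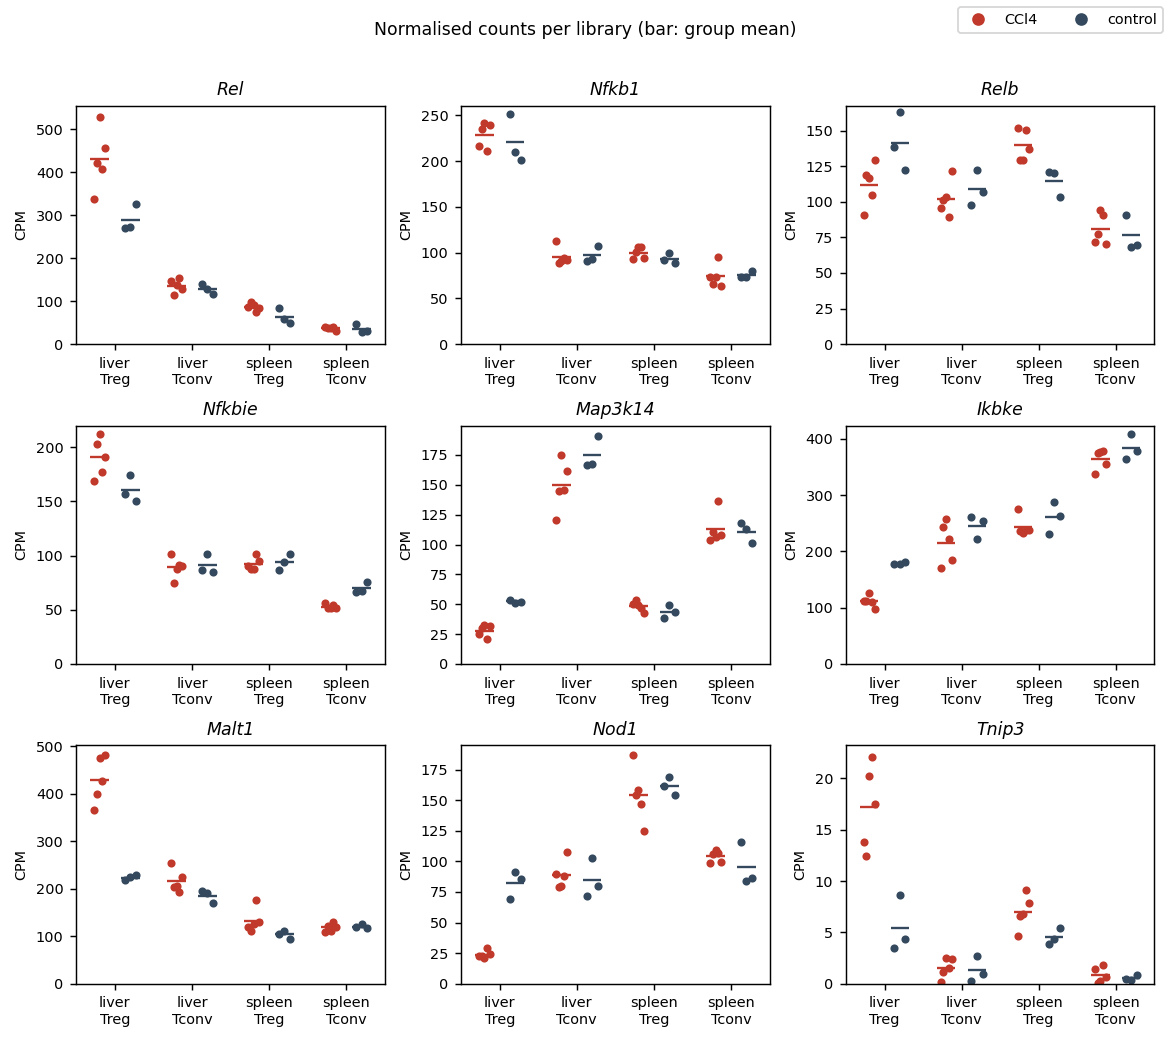
Normalised counts per library (CPM, linear axis from 0) of 9 members in the 4 populations, with CCl4 libraries in red, control libraries in dark blue and a bar at each group mean. In liver Treg, Map3k14, Ikbke and Nod1 are lower and Rel and Malt1 higher in all 5 CCl4 libraries than in the 3 controls.

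In liver Tconv none of the 35 genes was called between CCl4 and control libraries by edgeR, limma-voom or DESeq2, and 4 had an unadjusted p under 0.05 in edgeR. Of all tested genes 0.326% were called, 0.146% as higher and 0.181% as lower. The 4 were Rela, Tnip2, Birc2 and Birc3, with edgeR adjusted p between 0.247 and 0.368. No share of all tested genes at that unadjusted p was set beside the 4, and nothing is read from their number. Rela averaged 278 ± 19.7 CPM in CCl4 and 316 ± 8.56 CPM in control libraries, and Birc3 258 ± 16.1 and 223 ± 26.9 CPM. Rel averaged 136 ± 16.1 and 128 ± 12.01 CPM in CCl4 and control libraries, and Nfkbia 985 ± 125 and 877 ± 109 CPM. The groups overlapped for Rel and Nfkbia, and for Tnfaip3 at 4005 ± 353 and 3359.5 ± 324 CPM.

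The other genes of the liver Tconv comparison lay as close. Nfkb1 averaged 95.6 ± 9.47 CPM in CCl4 and 97.2 ± 8.62 CPM in control libraries, Nfkb2 173 ± 26.3 and 196 ± 30.6 CPM, and Relb 102 ± 12.02 and 109 ± 12.4 CPM. Traf1 averaged 430.2 ± 37.2 CPM in CCl4 and 402 ± 44.7 CPM in control libraries. Map3k14 averaged 149 ± 20.5 CPM in CCl4 and 175 ± 13.8 CPM in control libraries, and Nod1 88.9 ± 11.4 and 84.9 ± 16.2 CPM.

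Whether liver Treg and liver Tconv differed in their CCl4 effect was tested directly for all genes. Of the 35, 4 were called (11.4%), where 3.64% of all tested genes were. The effect in Treg minus that in Tconv was -1.86 for Nod1 (SE 0.19, edgeR adjusted p = 2.14e-07) and 0.72 for Malt1 (SE 0.16, edgeR adjusted p = 0.00599) on the log2 scale. It was -0.68 for Map3k14 (SE 0.17, edgeR adjusted p = 0.0218) and -0.39 for Traf5 (SE 0.11, edgeR adjusted p = 0.0452). The CCl4 effect on Nod1, Map3k14 and Traf5 was thus lower, and that on Malt1 higher, in Treg than in Tconv of the same organ. The Map3k14 call was lost without liver Treg control 1 or liver Tconv control 1 or 2 (edgeR adjusted p up to 0.0707), and the Traf5 call without any of 12 of the 16 libraries left out (up to 0.154). Rel, Nfkbia and Ikbke, called in Treg alone, were not called in this test of the difference (edgeR adjusted p = 0.254, 0.446 and 0.0534).

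In spleen Treg, Tnfaip3, Nfkbia and Nfkbiz rose in CCl4 mice, and all 3 are in the inhibitor group. They are 3 of 35 genes (8.57%), where 1.18% of all tested genes were called, 0.758% as higher and 0.42% as lower. The values show where the difference lay. Tnfaip3 had 1968, 1701, 1371, 1062 and 1270.0 CPM in CCl4 libraries, against 767, 144 and 143 CPM in control libraries 1 to 3 (log2 fold change 2.07, SE 0.49, edgeR adjusted p = 0.0316). Nfkbia had 1748, 1654, 1412, 1648 and 1596 CPM in CCl4 libraries, against 1265, 536 and 517 CPM in control libraries (log2 fold change 1.06, SE 0.23, edgeR adjusted p = 0.0173). Nfkbiz had 264, 291, 236, 247 and 231 CPM in CCl4 libraries, against 177, 81.2 and 79.9 CPM in control libraries (log2 fold change 1.17, SE 0.26, edgeR adjusted p = 0.0224). For all 3 genes control library 1 lay below the CCl4 libraries and well above controls 2 and 3, the libraries in which Fos was low.

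Without the 4 spleen control libraries that stood apart, the log2 fold changes in spleen Treg became 0.94 for Tnfaip3, 0.35 for Nfkbia and 0.52 for Nfkbiz. That fit left 1 spleen Treg control, too few for the absence of calls to be read. Leaving out control 2 or control 3 alone ended all 3 calls, and leaving out CCl4 library 1 or 2 ended that of Tnfaip3. Without control 1, in contrast, the log2 fold changes were 3.36 for Tnfaip3 and 1.61 for Nfkbia (edgeR adjusted p = 0.000265 and 3.54e-05). Fos itself had 925, 797, 856, 957 and 1116 CPM in the CCl4 libraries of spleen Treg, against 843, 25.2 and 22.6 CPM in the controls. Over 14 myeloid markers the summed level was 72.8 to 130 CPM in CCl4 and 24.2 to 30.5 CPM in control spleen Treg, with S100a8 averaging 7.48 CPM in CCl4 and 0.042 CPM in control libraries and 2 and 4 of the 14 markers averaging under 0.1 CPM. Its part in these differences was not tested.

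**Figure D4:**
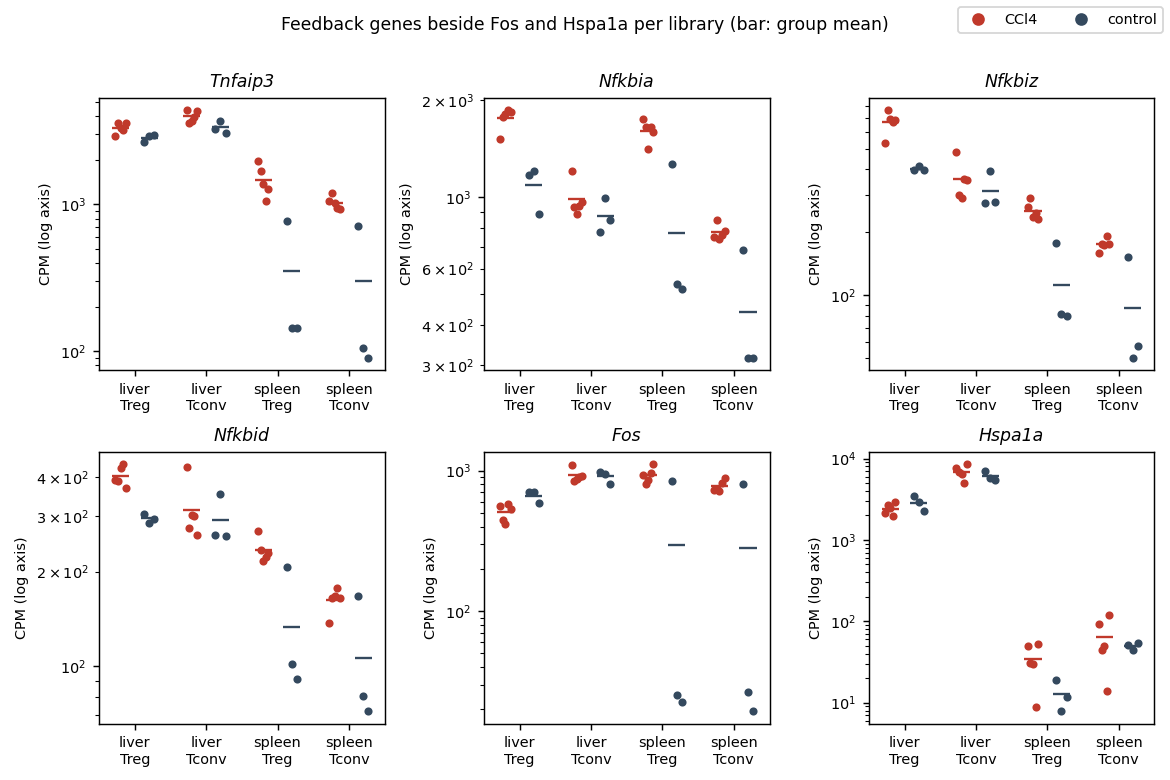
Levels per library (CPM, log axis) of the feedback genes Tnfaip3, Nfkbia, Nfkbiz and Nfkbid beside Fos and Hspa1a, with CCl4 libraries in red, control libraries in dark blue and a bar at each group mean. In spleen, controls 2 and 3 lie low for the feedback genes and for Fos (19.4 to 26.4 CPM) while control 1 lies between them and the CCl4 libraries for Tnfaip3, and Hspa1a separates the liver libraries from the spleen libraries.

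The other members in spleen Treg were not called. Rel averaged 86.9 ± 8.64 CPM in CCl4 and 63.7 ± 17.95 CPM in control libraries (edgeR adjusted p = 0.171), with control 1 inside the CCl4 range. Nfkbid averaged 235 ± 20.3 and 133 ± 64.1 CPM (edgeR adjusted p = 0.0681). Nfkb1 averaged 100.1 ± 6.14 CPM in CCl4 and 93.6 ± 5.52 CPM in control libraries, Nfkb2 198 ± 16.5 and 160.1 ± 7.05 CPM, Relb 139.6 ± 11.1 and 115 ± 10.1 CPM and Rela 284 ± 15.4 and 262 ± 10.02 CPM. Birc3 averaged 166 ± 11.8 and 159 ± 0.460 CPM in CCl4 and control libraries, Traf1 385 ± 30.6 and 335 ± 43.4 CPM, and Map3k14 48.4 ± 4.21 and 43.7 ± 5.49 CPM. The groups overlapped for Nfkb1, Rela, Birc3, Traf1 and Map3k14.

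In spleen Tconv, Nfkbie fell and no member rose, so that 1 of 35 genes (2.86%) was called, where 1.07% of all tested genes were, 0.653% as higher and 0.414% as lower. Nfkbie had 56.2, 51.4, 51.7, 54.1 and 51.5 CPM in CCl4 libraries, against 66.4, 67.4 and 75.6 CPM in control libraries (log2 fold change -0.40, SE 0.086, edgeR adjusted p = 0.0228). The groups did not overlap, with control 1 the lowest of the 3. The call was lost without control 2 or control 3, and without the 4 libraries that stood apart the log2 fold change was -0.33. Tnfaip3 had 1059.6, 1204, 1025, 938 and 924 CPM in CCl4 libraries, against 707, 104 and 89.98 CPM in control libraries, with an edgeR adjusted p of 0.0632. Nfkbia averaged 779 ± 42.7 CPM in CCl4 and 441 ± 214 CPM in control libraries, and Nfkbiz 175 ± 11.7 and 86.9 ± 57.4 CPM (edgeR adjusted p = 0.0629 and 0.0503). As in Treg, controls 2 and 3 were the low libraries for these genes.

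In spleen Tconv, uncalled genes with an unadjusted p under 0.05 were Tnfaip3, Nfkbia, Nfkbiz, Nfkbid, Bcl3, Nfkbib, Traf6 and Bcl10. Their means were higher in CCl4 libraries, while Nfkbie fell. No share of all tested genes at that unadjusted p was set beside them, and nothing particular to the IkB family is read from them. Nfkbid had 137, 165, 168, 178 and 165 CPM in CCl4 libraries, against 168, 80.1 and 71.8 CPM in control libraries (edgeR adjusted p = 0.182). Bcl10 had 123, 147, 123, 114 and 129.8 CPM in CCl4 libraries, against 127, 79.9 and 84.7 CPM in control libraries (edgeR adjusted p = 0.0994). For both, control 1 lay within the CCl4 range and controls 2 and 3 below it. Bcl3 averaged 111 ± 17.2 CPM in CCl4 and 87.2 ± 18.4 CPM in control libraries, Nfkbib 69.9 ± 2.05 and 63.1 ± 3.20 CPM and Traf6 96.5 ± 6.72 and 80.7 ± 3.89 CPM (edgeR adjusted p = 0.297, 0.323 and 0.23).

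Of the other core genes of the pathway in spleen Tconv, Rel averaged 36.9 ± 3.30 CPM in CCl4 and 35.3 ± 9.86 CPM in control libraries, Nfkb1 74.3 ± 12.8 and 75.1 ± 3.79 CPM, Nfkb2 107 ± 7.46 and 112 ± 7.46 CPM, Relb 80.7 ± 10.99 and 76.3 ± 12.4 CPM and Rela 287 ± 16.1 and 287 ± 18.8 CPM. Birc3 averaged 118 ± 10.3 and 122 ± 6.31 CPM in CCl4 and control libraries, Traf1 234 ± 14.7 and 232 ± 18.5 CPM, and Map3k14 113 ± 13.4 and 111 ± 8.41 CPM. These 8 genes had edgeR adjusted p of at least 0.833.

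The CCl4 effect in liver Treg minus that in spleen Treg was called for 7 of the 35 genes, where 5.48% of all tested genes were. On the log2 scale it was -1.72 for Nod1 (SE 0.19, edgeR adjusted p = 1.74e-06), -1.05 for Map3k14 (SE 0.17, edgeR adjusted p = 0.000407) and -0.58 for Ikbke (SE 0.14, edgeR adjusted p = 0.0134). These 3 were also the ones called without the 4 spleen libraries that stood apart, and the Ikbke call was lost without spleen Treg control 1 (edgeR adjusted p = 0.0555). The other 4 were Relb at -0.62, Bcl10 at -0.61, Nfkb2 at -0.55 and Malt1 at 0.58. Their calls were lost without the 4 spleen libraries that stood apart, which left 1 spleen Treg control. The estimates were then -0.55 for Relb, -0.37 for Bcl10, -0.56 for Nfkb2 and 0.61 for Malt1. The difference for Tnfaip3 was -1.85 and was not called (edgeR adjusted p = 0.0903).

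Set against spleen, liver T cells of both kinds had more Rel, Tnfaip3, Nfkbiz, Nfkbid, Malt1, Tab2, Birc3, Traf1 and Nfkbie and less Ikbke, Traf5, Ikbkg and Traf2. In Treg 17 of the 35 genes were higher and 10 lower in liver (77.1% called), where 60.6% of all tested genes were called, 30.1% as higher and 30.5% as lower. In Tconv 19 were higher and 8 lower (77.1% called), where 55.0% of all tested genes were called, 27.2% as higher and 27.7% as lower. The median log2 fold change of the 35 was 0.25 in Treg and 0.37 in Tconv, against 0.037 and 0.036 over all tested genes. With a filter of 5 CPM on the mean, which changes the scaling, the split was 21 higher and 5 lower in Treg and 22 higher and 5 lower in Tconv. The libraries of liver and spleen also differed in the immediate early and heat shock list, of which 13 of 22 genes were higher in liver Treg and 17 of 22 in liver Tconv, with Hspa1a at a log2 fold change of 6.98 and 6.84. The part of that difference in the values below was not tested.

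Of the subunits, Rel differed most. In Treg its lowest, median and highest levels were 269, 372 and 529 CPM in liver, against 49.8, 83.4 and 97.97 CPM in spleen, 4.74-fold higher (log2 fold change 2.24, SE 0.11, edgeR adjusted p = 8.15e-16). In Tconv they were 113, 133 and 155 CPM in liver, against 28.4, 36.7 and 46.6 CPM in spleen, 3.65-fold higher (log2 fold change 1.87, SE 0.11, edgeR adjusted p = 4.58e-14). The tissues did not overlap in either cell type. Nfkb1 had 201, 226 and 251 CPM in liver Treg, against 88.8, 97.03 and 106 CPM in spleen Treg (log2 fold change 1.22, SE 0.073, edgeR adjusted p = 3.28e-14). In Tconv the difference of Nfkb1 was smaller, 96.2 ± 8.56 CPM in liver and 74.6 ± 9.90 CPM in spleen (log2 fold change 0.37, SE 0.072, edgeR adjusted p = 8.13e-05). The Treg effect minus the Tconv effect was 0.85 (SE 0.10, edgeR adjusted p = 5.07e-07), so the liver excess of Nfkb1 was larger in Treg.

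Nfkb2 averaged 259 ± 35.3 CPM in liver Treg and 184 ± 23.5 CPM in spleen Treg (log2 fold change 0.57, SE 0.078, edgeR adjusted p = 3.82e-07), and 182 ± 28.3 CPM in liver Tconv and 109 ± 7.44 CPM in spleen Tconv (log2 fold change 0.75, SE 0.078, edgeR adjusted p = 3.23e-09). Its exons share 11.6% of their bases with a noncoding gene annotated at a shared promoter. In the CCl4 libraries alone its Treg difference was 0.32, still called (edgeR adjusted p = 0.0105). Relb was called in Tconv, at 105 ± 11.8 CPM in liver and 79.1 ± 10.9 CPM in spleen (log2 fold change 0.43, SE 0.088, edgeR adjusted p = 0.000151), and not in Treg, at 123 ± 21.8 and 130.3 ± 16.3 CPM (edgeR adjusted p = 0.932). The difference between these effects, -0.44, was called (edgeR adjusted p = 0.012), though not without the 4 spleen libraries that stood apart (up to 0.187). Rela averaged 244 ± 18.4 CPM in liver Treg and 276 ± 17.2 CPM in spleen Treg (log2 fold change -0.15, SE 0.049, edgeR adjusted p = 0.00976). With the 5 CPM filter the sign of this small difference turned to 0.0081, it was flat in TPM, and the call was lost under 5 of 10 alternatives (edgeR adjusted p up to 0.890). In Tconv Rela averaged 292 ± 24.95 and 287 ± 15.8 CPM in liver and spleen and was not called.

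Several inhibitors were also higher in liver. Tnfaip3 had lowest, median and highest levels of 2645, 3095 and 3581 CPM in liver Treg, against 143, 1166 and 1968 CPM in spleen Treg (log2 fold change 2.10, SE 0.33, edgeR adjusted p = 3.84e-06). In Tconv they were 3080.4, 3720.4 and 4382 CPM in liver, against 89.98, 931 and 1204 CPM in spleen (log2 fold change 2.72, SE 0.34, edgeR adjusted p = 1.05e-07). Every liver library lay above every spleen library. Without the 4 spleen libraries that stood apart the log2 fold changes of Tnfaip3 were 1.53 in Treg and 2.10 in Tconv, both called, with edgeR adjusted p of 2.28e-09 and 3.74e-11. In the CCl4 libraries alone the Treg value was 1.20 (edgeR adjusted p = 7.22e-08). Nfkbiz averaged 570.5 ± 154 CPM in liver Treg and 201 ± 80.9 CPM in spleen Treg, a log2 fold change of 1.62, and 342 ± 70.9 and 142 ± 55.9 CPM in Tconv, a log2 fold change of 1.44. Nfkbid, with log2 fold changes of 0.97 and 1.20 in Treg and Tconv, and Nfkbie, with 0.90 and 0.57, were called in both cell types.

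Nfkbia was an exception in Treg. It averaged 1509 ± 376 CPM in liver Treg and 1297 ± 499 CPM in spleen Treg, which was not called (edgeR adjusted p = 0.0807), and in the CCl4 libraries alone liver and spleen Treg lay at 1513 to 1863 and 1412 to 1748 CPM. In Tconv it averaged 945 ± 125 CPM in liver and 652 ± 212 CPM in spleen (log2 fold change 0.67, SE 0.15, edgeR adjusted p = 0.000555), and the log2 fold change was 0.34 without the 4 spleen libraries that stood apart (edgeR adjusted p = 0.00593). Nfkbib rose in liver by 0.26 in Treg and 0.51 in Tconv on the log2 scale. Bcl3, a nuclear IkB protein, was not called in either. Of the ubiquitin-editing group, Tnip2, a partner of Tnfaip3, was higher in liver Treg at 0.54, Otulin, the deubiquitinase of linear chains, was lower there at -0.23, a call lost with the 5 CPM filter (edgeR adjusted p = 0.299), and Cyld, a deubiquitinase that restrains the pathway, was not called in either cell type. Tnip1, another partner, was lower in liver at -0.19 in Treg and -0.20 in Tconv, and Tnip3 higher in liver Tconv at 1.08. The calls of Tnip1 (in both cell types) and of Tnip3 in Tconv were lost without any of 8 or 9 of the 16 libraries (edgeR adjusted p up to 0.702, 0.412 and 0.330 over the alternatives).

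Of the 7 kinases, 4 were called lower and 1 higher in liver Treg, and 4 lower and 2 higher in liver Tconv. Of all tested genes 60.6% and 55.0% were called in these comparisons. Some of the kinase calls did not hold, as given here and in the next paragraph, so no direction is read for the kinases together. Ikbke had 97.5, 119 and 181 CPM in liver Treg, against 231, 238 and 288 CPM in spleen Treg (log2 fold change -0.84, SE 0.073, edgeR adjusted p = 6.79e-11). In Tconv it had 170.2, 233 and 261 CPM in liver, against 337, 375 and 408 CPM in spleen (log2 fold change -0.70, SE 0.072, edgeR adjusted p = 2.86e-09). The tissues did not overlap for Ikbke in either cell type. Ikbkg was lower in liver by log2 fold changes of -0.50 and -0.36 in Treg and Tconv, and Map3k7, the kinase that activates the IkB kinase complex, by -0.25 and -0.22, though the sign in Treg turned to 0.0167 in deposited TPM and both calls were lost with the 5 CPM filter and with length offsets (edgeR adjusted p up to 0.597 and 0.863). Chuk was higher by 0.42 and 0.15, the Tconv call being lost without the 4 spleen libraries that stood apart and in the CCl4 libraries alone (edgeR adjusted p up to 0.174), and Ikbkb was lower in Tconv at -0.36. Tbk1, a kinase of the Ikbke kind, was not called in either cell type.

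Over CCl4 and control libraries together, Map3k14 was lower in liver in Treg and higher in liver in Tconv. It averaged 37.1 ± 13.2 CPM in liver Treg and 46.6 ± 4.95 CPM in spleen Treg (log2 fold change -0.27, SE 0.087, edgeR adjusted p = 0.00936), but 159 ± 21.7 CPM in liver Tconv and 112 ± 11.1 CPM in spleen Tconv (log2 fold change 0.53, SE 0.086, edgeR adjusted p = 5.77e-06). The difference between the effects was -0.80 (SE 0.12, edgeR adjusted p = 1.96e-05). The Treg call was lost with the 5 CPM filter and without the 4 spleen libraries that stood apart (edgeR adjusted p up to 0.258), while the difference was called under every alternative run. In the CCl4 libraries alone the Treg difference was -0.77 (edgeR adjusted p = 1.28e-05). The control libraries went the other way, with 53.6, 51.4 and 51.99 CPM in liver Treg, against 38.6, 49.5 and 43.2 CPM in spleen Treg, every liver control above every spleen control as in Tconv. The difference between these controls was not tested on its own.

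Among adaptors, Birc3 averaged 341 ± 38.00 CPM in liver Treg and 164 ± 9.75 CPM in spleen Treg (log2 fold change 1.04, SE 0.06, edgeR adjusted p = 1.52e-14), and 245 ± 26.2 and 119.7 ± 8.70 CPM in Tconv (log2 fold change 1.00, SE 0.06, edgeR adjusted p = 4.61e-14). Traf1 averaged 681 ± 71.4 CPM in liver Treg and 366 ± 42.03 CPM in spleen Treg, and 419.8 ± 39.6 and 233 ± 14.9 CPM in Tconv, with log2 fold changes of 0.92 and 0.84. The tissues did not overlap for either gene. Tab2, the partner that couples Map3k7 to ubiquitin chains, rose by 1.10 and 0.59 in Treg and Tconv on the log2 scale, and Birc2, the other cIAP, by 0.54 and 0.49. Traf5 fell by 0.78 and 0.84 and Traf2, an adaptor of TNF receptors, by 0.40 and 0.30. Traf3 was higher in liver Treg at 0.25 and lower in liver Tconv at -0.30, a difference of 0.55 that was called (edgeR adjusted p = 0.000848). The Treg call of Traf3 was lost without spleen Treg control 1 (edgeR adjusted p = 0.0621), and the Tconv call with the 5 CPM filter, with length offsets and in the CCl4 libraries alone (up to 0.429). With length offsets Traf3 was at 0.72 in Treg and -0.090 in Tconv, and Tnip2 in Treg at 0.90. Traf6, the ligase of the interleukin-1 route, was not called in either.

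In the antigen receptor and NOD group, Malt1 had 218, 382 and 483 CPM in liver Treg, against 95.2, 115 and 176 CPM in spleen Treg (log2 fold change 1.40, SE 0.08, edgeR adjusted p = 1.06e-14), and rose in liver Tconv by 0.75 on the log2 scale. Bcl10 was higher in liver at 0.24 in Treg and 0.58 in Tconv. In the CCl4 libraries alone the sign for Bcl10 in Treg turned to -0.048 and the Tconv value was 0.33. The Treg call was also lost without liver Treg control 2 or spleen Treg control 2. Nod1 had 20.9, 26.5 and 91.6 CPM in liver Treg, against 125, 156 and 187 CPM in spleen Treg (log2 fold change -1.84, SE 0.096, edgeR adjusted p = 1.39e-15), with no overlap, and 87.4 ± 12.4 CPM in liver Tconv and 101 ± 11.1 CPM in spleen Tconv, which was not called (edgeR adjusted p = 0.0684) unless the 4 spleen libraries that stood apart were left out, when it was -0.34 (edgeR adjusted p = 0.0177). Over the called members, the tissue comparison gave SEs from 0.047 (Chuk) to 0.33 (Tnfaip3) and edgeR adjusted p from 8.15e-16 (Rel) to 0.0423 (Tnip1) in Treg, and SEs from 0.047 (Chuk) to 0.45 (Tnip3) and edgeR adjusted p from 4.58e-14 (Rel) to 0.0431 (Tnip3) in Tconv.

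Over all 35 genes the tissue effect differed between Treg and Tconv for 14 (40.0%), where 19.4% of all tested genes were called. The effect in Treg minus that in Tconv was higher for 8, namely Nfkb1, Malt1 at 0.66, Traf3, Tab2 at 0.51, Tnip2 at 0.45, Nfkbie at 0.34, Ikbkb at 0.29 and Chuk at 0.27. It was lower for 6, namely Nod1 at -1.64, Map3k14, Relb, Bcl10 at -0.34, Nfkbib at -0.25 and Rela at -0.20. The 14 had SEs from 0.066 (Chuk) to 0.13 (Tnip2) and edgeR adjusted p from 2.74e-10 (Nod1) to 0.0438 (Rela). Without the 4 spleen libraries that stood apart 9 were called, with Rela, Relb, Bcl10, Nfkbib, Tnip2 and Chuk lost, and in the CCl4 libraries alone Rela, Nfkbib, Nfkbie, Tnip2, Ikbkb and Chuk were lost. The Rela call was lost without any of 19 of the 32 libraries left out and the Bcl10 call without any of 15 (edgeR adjusted p up to 0.383 and 0.141 over the alternatives).

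Set against Tconv, Treg of both organs had more Tnip3, Rel, Nfkb1, Nfkb2, Relb, Nfkbia, Nfkbie, Nfkbiz, Bcl3, Tnip1, Traf1, Traf2, Birc2 and Birc3 and less Map3k14, Ikbke, Ikbkb, Traf6 and, with a call in spleen that most alternatives lost, Otulin. In liver 18 of the 35 genes were higher and 10 lower in Treg (80.0% called), where 51.8% of all tested genes were called, 24.7% as higher and 27.1% as lower. In spleen 16 were higher and 6 lower (62.9% called), where 39.7% of all tested genes were called, 19.4% as higher and 20.3% as lower. The medians over the 35 were 0.19 and 0.18 on the log2 scale in liver and spleen, against 0.014 and 0.0087 over all tested genes. Over 10 B cell markers the summed level was 1804 to 3142 CPM in Treg and 290 to 1002 CPM in Tconv, nearly all of it Ighm, while Ms4a1 and Pax5 averaged at most 2.68 and 0.22 CPM in any group. Of the 10 markers, 3 were called higher and 2 lower in liver Treg, with a median log2 fold change of 0.92. In spleen Treg 6 were called higher and 0 lower, with a median of 1.285. The part of such RNA in these differences was not tested.

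Of the subunits, Rel had lowest, median and highest levels of 269, 372 and 529 CPM in liver Treg, against 113, 133 and 155 CPM in liver Tconv (log2 fold change 1.42, SE 0.11, edgeR adjusted p = 6.34e-12), and 49.8, 83.4 and 97.97 CPM in spleen Treg, against 28.4, 36.7 and 46.6 CPM in spleen Tconv (log2 fold change 1.04, SE 0.11, edgeR adjusted p = 5.75e-09). Nfkb1 had 201, 226 and 251 CPM in liver Treg, against 88.8, 92.9 and 112 CPM in liver Tconv (log2 fold change 1.22, SE 0.073, edgeR adjusted p = 1.93e-14). Treg and Tconv did not overlap in these comparisons. In spleen the Nfkb1 difference was 0.37, with averages of 97.6 ± 6.45 CPM in Treg and 74.6 ± 9.90 CPM in Tconv. Nfkb2 averaged 259 ± 35.3 and 182 ± 28.3 CPM in Treg and Tconv of liver, and 184 ± 23.5 and 109 ± 7.44 CPM in Treg and Tconv of spleen, with log2 fold changes of 0.52 and 0.70. Relb averaged 123 ± 21.8 and 105 ± 11.8 CPM in Treg and Tconv of liver, and 130.3 ± 16.3 and 79.1 ± 10.9 CPM in Treg and Tconv of spleen, with log2 fold changes of 0.25 and 0.69. The liver Relb call was lost without liver Treg control 2 or liver Tconv control 1 and in the CCl4 libraries alone (edgeR adjusted p up to 0.274 over the alternatives). Rela was lower in liver Treg at -0.27, 244 ± 18.4 CPM in Treg and 292 ± 24.95 CPM in Tconv, but level in deposited TPM, and was not called in spleen at 276 ± 17.2 and 287 ± 15.8 CPM.

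Among inhibitors the largest difference was that of Tnip3, at 3.44, 13.2 and 22.1 CPM in liver Treg, against 0.195, 1.34 and 2.68 CPM in liver Tconv (log2 fold change 2.73, SE 0.45, edgeR adjusted p = 6.97e-06), and 3.87, 6.00 and 9.09 CPM in spleen Treg, against 0.115, 0.552 and 1.82 CPM in spleen Tconv (log2 fold change 3.02, SE 0.46, edgeR adjusted p = 3.98e-06). In both organs every Treg library lay above every Tconv library. Nfkbie averaged 179 ± 21.7 and 89.9 ± 8.56 CPM in Treg and Tconv of liver, and 93.2 ± 5.89 and 59.3 ± 9.25 CPM in Treg and Tconv of spleen, with log2 fold changes of 0.96 and 0.62. Nfkbia averaged 1509 ± 376 and 945 ± 125 CPM in Treg and Tconv of liver (log2 fold change 0.57, SE 0.15, edgeR adjusted p = 0.00243), and 1297 ± 499 and 652 ± 212 CPM in Treg and Tconv of spleen (log2 fold change 0.93, SE 0.15, edgeR adjusted p = 1.37e-05). Bcl3 was higher in Treg at 0.83 in liver and 0.69 in spleen, Nfkbiz at 0.63 and 0.45, and Tnip1 at 0.49 and 0.48. Otulin was lower at -0.33 in liver and -0.16 in spleen, where its call was lost under 6 of 10 alternatives and without any of 6 of the 16 libraries (edgeR adjusted p up to 0.183). In spleen Nfkbid was higher at 0.43 and Tnip2 lower at -0.33. The Nfkbid call was lost without spleen Treg control 1, at 0.19 (edgeR adjusted p = 0.306), or spleen Tconv control 2 or 3, and the Tnip2 call with length offsets, without the 4 spleen libraries that stood apart and in the CCl4 libraries alone (up to 0.312). The spleen Nfkbiz call was lost without any of 10 of the 16 libraries (edgeR adjusted p up to 0.370 over the alternatives). Exons of Bcl3 share 6.51% of their bases with an antisense gene.

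Tnfaip3 was not called between the cell types. It averaged 3149 ± 332 CPM in liver Treg and 3763 ± 461 CPM in liver Tconv (edgeR adjusted p = 0.528), and 1053 ± 670.0 CPM in spleen Treg and 756 ± 430.4 CPM in spleen Tconv (edgeR adjusted p = 0.388). Both p-values rest on the spread shared by all 8 groups, in which spleen libraries ran from 89.98 to 1968 CPM. They do not measure the spread in liver alone, so equal levels in liver are not read from them. Its transcripts were split differently, however. The most abundant Tnfaip3 transcript, of 4422 bases, made up 58.0% ± 2.93 of the gene's deposited TPM in liver Treg and 74.9% ± 2.44 in liver Tconv, while the share was 58.0% ± 4.86 for spleen Treg and 75.4% ± 4.72 for spleen Tconv (SD, n = 8 each). The share ran from 49.6% to 64.1% over all Treg libraries and from 65.9% to 80.6% over all Tconv libraries, without overlap. These shares are estimates from reads that the transcripts of a gene have in common, and no test was run on them.

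Of the kinases, Map3k14 differed most and in the direction opposite to Rel. It had 20.8, 31.9 and 53.6 CPM in liver Treg, against 121, 164 and 191 CPM in liver Tconv, 4.23-fold lower (log2 fold change -2.08, SE 0.09, edgeR adjusted p = 1.30e-17). In spleen it had 38.6, 47.9 and 53.5 CPM in Treg, against 102, 109 and 137 CPM in Tconv, 2.43-fold lower (log2 fold change -1.28, SE 0.088, edgeR adjusted p = 5.69e-13). The cell types were far apart in both organs, and the calls held under every alternative run. Ikbke was lower in Treg at -0.71 in liver and -0.57 in spleen, and Ikbkb at -0.18 and -0.47. In liver Ikbkg was also lower at -0.24 and Chuk higher at 0.27. The liver values of Ikbkb, Ikbkg and Nfkbib (the last at -0.15) reversed to small positive differences in deposited TPM. The calls of Ikbkg and Nfkbib were lost with the 5 CPM filter, compared alone and in the CCl4 libraries alone, that of Ikbkg also without liver Treg control 1 and that of Nfkbib without liver Tconv control 2 (edgeR adjusted p up to 0.0693 and 0.431). The liver call of Ikbkb was lost with the 5 CPM filter (edgeR adjusted p = 0.130). Tbk1 and Map3k7 were not called in either organ.

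Among adaptors, Traf1 averaged 681 ± 71.4 CPM in liver Treg and 419.8 ± 39.6 CPM in liver Tconv, and 366 ± 42.03 and 233 ± 14.9 CPM in Treg and Tconv of spleen, with log2 fold changes of 0.71 and 0.62. Birc3 averaged 341 ± 38.00 CPM in liver Treg and 245 ± 26.2 CPM in liver Tconv, and 164 ± 9.75 and 119.7 ± 8.70 CPM in Treg and Tconv of spleen, with log2 fold changes of 0.48 and 0.44. Neither gene's libraries overlapped between the cell types. Birc2 was higher in Treg at 0.47 and 0.43 and Traf2 at 0.19 and 0.29 in liver and spleen, and Traf6 lower at -0.48 and -0.29. The spleen call of Traf2 was lost without the 4 spleen libraries that stood apart (edgeR adjusted p = 0.0664). In liver, and not in spleen, Tab2 was called higher at 0.68, Malt1 at 0.63 and Traf3 at 0.54, and Bcl10 lower at -0.43. Each of these 4 differences between the organs was called in the test of the tissue effect given above. The called members had SEs from 0.047 (Chuk) to 0.45 (Tnip3) and edgeR adjusted p from 1.30e-17 (Map3k14) to 0.0163 (Relb) in liver, and SEs from 0.055 (Ikbkb) to 0.46 (Tnip3) and edgeR adjusted p from 5.69e-13 (Map3k14) to 0.0446 (Nfkbiz) in spleen. Traf5 was not called in either organ.

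Over CCl4 and control libraries together, Nod1 reversed between the organs. It had 20.9, 26.5 and 91.6 CPM in liver Treg, against 71.96, 84.03 and 108 CPM in liver Tconv (log2 fold change -0.98, SE 0.093, edgeR adjusted p = 4.93e-10), and 125, 156 and 187 CPM in spleen Treg, against 83.9, 103 and 116 CPM in spleen Tconv (log2 fold change 0.66, SE 0.092, edgeR adjusted p = 7.80e-07). The low liver Treg values were those of the CCl4 libraries, none above 28.8 CPM, while the 3 liver Treg controls had 69.1, 91.6 and 85.8 CPM. The 3 liver Tconv controls had 71.96, 103 and 79.6 CPM, so in liver the controls of the cell types overlapped. The difference between these controls was not tested on its own. In the CCl4 libraries alone the liver difference was -1.89, and that of Malt1 1.00 (edgeR adjusted p = 5.18e-12 and 1.45e-07). The difference between the organs, -1.64 with an SE of 0.13, was the largest of the 35 in that test (edgeR adjusted p = 2.74e-10).

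Other genes of the pathway were read from lists outside the 35. In liver Treg of CCl4 mice, 9 of 39 further signalling genes rose and 5 fell. The risers included N4bp1 at 0.69, Rnf11, a partner of Tnfaip3, at 0.57 and Irak2, a kinase of the interleukin-1 route, at 0.53 on the log2 scale. The fallers included Prkcq, the protein kinase that links the antigen receptor to Bcl10 and Malt1, at -0.94, and Ripk2, the kinase that carries the Nod1 signal, at -0.48. Of 20 upstream receptors 6 rose and none fell, by edgeR: Il1rl1, the interleukin-33 receptor, at 0.98, Tlr2 at 0.92, Tnfrsf9 at 0.90, Tnfrsf4 at 0.81, Tnfrsf1b at 0.73 and Tnfrsf18 at 0.55.

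Of 32 NF-kB target genes outside the members, 11 rose and 3 fell in liver Treg of CCl4 mice. Among those that rose were Cxcl2, a neutrophil chemokine, at 2.78, Ier3 at 1.88, the survival gene Bcl2l1 at 1.67 and Ebi3, a cytokine subunit, at 1.33. Those that fell were Lta, a TNF family cytokine, at -1.35, Irf1 at -0.58 and Rnf19b at -0.52. The shares of these lists stand against the 14.9% of all tested genes called in this comparison. In liver Tconv none of the 39, 20 or 32 genes was called by edgeR. In spleen Treg 3 receptors and 4 targets rose in CCl4 mice, with Tnfrsf9 at 0.73 and Tnfrsf4 at 0.53 in both lists and Gadd45b at 1.63, and in spleen Tconv 2 receptors and 3 targets rose, with Tnfrsf4 at 0.69 and Cxcl10, an interferon-induced chemokine, at 1.86. Of all tested genes 0.758% and 0.653% were called higher in these 2 comparisons. None of the 39 further signalling genes was called in either spleen population by edgeR. Leaving out the 4 spleen libraries that stood apart left 1 control in each of these 2 comparisons, too few for the absence of calls to be read.

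The counts that follow stand against 60.6% and 55.0% of all tested genes called between the organs in Treg and Tconv, and 51.8% and 39.7% between the cell types in liver and spleen, and nothing particular to the lists is read from them. Between the organs, 11 of the 39 further signalling genes were higher and 17 lower in liver Treg, and 13 higher and 14 lower in liver Tconv, where Zc3h12a, a ribonuclease that limits inflammatory transcripts, was higher at 1.31 and 1.80. Of the 20 receptors 11 were higher and 5 lower in liver Treg, and 13 higher and 2 lower in liver Tconv, with Il1rl1 at 3.53 and 2.39. Of the 32 targets 16 were higher and 7 lower in liver Treg, and 23 higher and 5 lower in liver Tconv. Between the cell types 11 of the 39 were higher and 12 lower in liver Treg, and 13 higher and 11 lower in spleen Treg, and of the 32 targets 14 were higher and 12 lower in liver Treg, and 17 higher and 3 lower in spleen Treg. Of the 20 receptors 7 were higher and 7 lower in liver Treg, and 7 higher and 3 lower in spleen Treg. Between the cell types, Treg had more Il1rl1, Tnfrsf9, Tnfrsf4, Tnfrsf18 and Tnfrsf1b in both organs, with Tnfrsf9 at 4.84 in liver and 4.10 in spleen. Prkcq was lower in Treg at -0.92 in liver and -0.47 in spleen.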

How the data were processed

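RNA of sorted liver and spleen T cells was sequenced from cDNA made with a low-input kit and NexteraXT libraries, per the labels' protocols. The authors quantified transcripts with kallisto 0.44.0 after bcl2fastq 2.19 on build GRCm38.p6, per the submitters' processing notes. Each deposited table gives an estimated count and a TPM per transcript, per the file headers. For the annotation release and the strand option, the sources used here name none, and transcript names were matched to GENCODE M21. Between 0.684% and 0.823% of each library's counts had no match.

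Estimated counts were summed per gene, rounded, filtered with filterByExpr to 17159 genes and normalised by TMM (factors 0.9225 to 1.065). edgeR 4.0.16 (R 4.3.3) fitted its quasi-likelihood test to the 8 groups of 32 libraries, with 24 residual degrees of freedom and Benjamini-Hochberg adjustment over all tested genes. The groups share 1 estimate of each gene's spread, so a p-value for liver also reflects the spread in spleen libraries. A tissue or cell type effect is the mean of its CCl4 and control contrasts. SEs are the log2 fold change over the root of F, an approximation. The fit was tested on simulated data. Alternatives were DESeq2 1.42.0, limma-voom 3.58.1, other scalings, filters and offsets, a replicate block, each comparison alone, CCl4 libraries alone, deposited TPM, each library left out, and 4 spleen controls left out. Those 4 were picked by their values in these data, and leaving them out of the liver comparisons was not planned. Figures were drawn with matplotlib 3.10.9.

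The 35 genes and all gene lists were chosen with earlier results of these data known. By rule all 35 are accounted for, each called gene is named, those of smallest adjusted p in a role are given by library, and 10 core genes are given in every comparison as group means. Exons of Nfkb2, Nfkbib, Bcl3, Ikbkg, Ikbke, Map3k14 and Traf5 overlap those of other genes by over 50 bases, so their counts are uncertain.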

Additional observations from a re-analysis of the deposited data

Results flagged for a closer look

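In groups of 5 libraries, 10 of 140 tested sets of values held a library far from the others, where chance gives about 1 in 20. In liver the libraries were those numbered 1: Nfkbia was at 1513 CPM in liver Treg CCl4 library 1, Nfkbia at 1204 CPM, Nfkbid at 432.5 CPM and Nfkb1 at 112.2 CPM in liver Tconv CCl4 library 1. In spleen Tconv CCl4 library 4, Nfkb2 was at 119.9 CPM, Map3k14 at 136.5 CPM and Birc2 at 131.9 CPM. In spleen Treg, Ikbke was at 275.6 CPM in CCl4 library 1, Traf6 at 65.96 CPM in CCl4 library 2 and Malt1 at 176.2 CPM in CCl4 library 4.

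Differences between effects that passed the test over all genes are given on the log2 scale. The CCl4 effect in liver Treg minus that in liver Tconv was -0.68 for Map3k14, -0.39 for Traf5, 0.72 for Malt1 and -1.86 for Nod1. The CCl4 effect in liver Treg minus that in spleen Treg was -0.55 for Nfkb2, -0.62 for Relb, -0.58 for Ikbke, -1.05 for Map3k14, -0.61 for Bcl10, 0.58 for Malt1 and -1.72 for Nod1. The tissue effect in Treg minus that in Tconv was 0.85 for Nfkb1, -0.20 for Rela, -0.44 for Relb, -0.25 for Nfkbib, 0.34 for Nfkbie, 0.45 for Tnip2, 0.29 for Ikbkb and 0.27 for Chuk. It was -0.80 for Map3k14, 0.55 for Traf3, 0.51 for Tab2, -0.34 for Bcl10, 0.66 for Malt1 and -1.64 for Nod1.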

How the results depend on the processing

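The number of the 35 genes called moved by over 1.5 times in 5 comparisons. In spleen Tconv, 1 gene was called between CCl4 and control, and 2 with DESeq2 size factors, 4 with a 5 CPM filter, 4 with limma-voom, 4 with DESeq2, 2 with length offsets, 4 with the replicate block, 0 compared alone, 0 with 4 spleen controls left out, and 0 to 6 with each library left out. In spleen Treg, 3 were called, and 6 with DESeq2, 1 compared alone, 0 with those 4 left out, and 0 to 6 with each library left out. In both, the 6 came without control 1 and the 0 without control 2 or 3. The effect in liver Treg minus liver Tconv had 4, 2 compared alone and 2 to 5 with each library left out (2 without liver Treg control 1 or liver Tconv control 1 or 2). Liver Treg minus spleen Treg had 7, 3 with the 4 left out and 3 to 8 with each library left out (3 without liver Treg control 1 or 2). The tissue effect in Treg minus Tconv had 14, 9 with the 4 left out and 12 to 16 with each library left out. Elsewhere counts with each library left out were 7 to 12 (liver Treg CCl4), 0 to 0 (liver Tconv CCl4), 25 to 28 in each tissue comparison, 27 to 29 (cell types, liver) and 20 to 22 (cell types, spleen). DESeq2 gave no adjusted p for Tnfaip3 in 3 comparisons, so no verdict was drawn. The causes were not tested.

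Signs reversed for Rela (0.0081, 5 CPM filter) and Bcl10 (-0.048, CCl4 libraries alone) in liver against spleen Treg, and in deposited TPM for Map3k7 in liver against spleen Treg (0.0167) and for Rela (0.0028), Nfkbib (0.0666), Ikbkb (0.0149) and Ikbkg (0.0203) in liver Treg against Tconv.

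Over all genes, called numbers ranged over the alternatives, single libraries left out aside, from 7 to 273 (56 as reported) in liver Tconv CCl4, 0 to 498 (202) in spleen Treg CCl4, 0 to 658 (183) in spleen Tconv CCl4, 6875 to 10635 (10398) in liver against spleen Treg, 4435 to 7002 (6805) in spleen Treg against Tconv, 372 to 951 (625) and 330 to 1473 (940) in the differences of CCl4 effects and 1731 to 3761 (3324) in that of tissue effects. Replicate numbers met no pairing criterion, since not every same-number correlation was over 0.1. As a hint from the data, 8 of 8 libraries in liver and 7 of 8 in spleen correlated best with their own number between Treg and Tconv (median r 0.146 and 0.298, against -0.0401 and -0.0707 for other numbers), and 5 and 6 of 8 between organs in Treg and Tconv (0.117 and 0.130, against -0.0465 and -0.0605), but 1, 0, 0 and 0 of 5 between CCl4 and control. With the block 10, 0, 4 and 4 genes were called in the CCl4 comparisons (liver Treg, liver Tconv, spleen Treg, spleen Tconv), 28 and 25 between organs and 28 and 22 between cell types. With 3 controls a group, or 1 where the 4 were left out, small differences could not be detected.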
